A study of Mus musculus with 15 samples.

Results

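The hypothalamus of mice of the PGM group was set against that of the Control group. PGM and Control each comprised 3 of the 15 samples of the series, which has 5 groups. Both were taken at postnatal day 15 from mice of the outbred stock CD-1, and total RNA of the dissected hypothalamus was sequenced. The group codes are given as they stand in the labels, which state no treatment, sex or litter for either group and do not spell the codes out, so what the PGM animals or their forebears received is not described here. The title of the series names transgenerational thyroid hormone effects as its subject. Measured were mean RPKM, reads scaled to transcript length and to the mapped reads of a library, which the authors deposited for every transcript as 1 average per group. No value of a single animal was used, so no difference below has a replicate check, an SD or a p-value, and the depth of the libraries is unknown. The 49404 transcripts were reduced to their median for each of 24831 gene names, and the comparison kept 17481 of them (70.4%), those averaging 1 RPKM or more across the 5 groups. A difference is log2(PGM RPKM + 0.5) minus log2(Control RPKM + 0.5), so that 0.585 is 1.5-fold, and the added 0.5 shrinks the difference of rare transcripts.

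The hypothalamus lies at the base of the forebrain, beneath the thalamus, behind the preoptic area and above the pituitary gland. Its nuclei release peptides that govern the pituitary, water balance, feeding, body temperature, sleep and reproduction, and each nucleus is marked by its own transcription factors and peptides. In the weeks after birth the mouse brain is myelinated by oligodendrocytes, and thyroid hormone, whose secretion is governed by Trh neurons of the paraventricular nucleus, is a known driver of that maturation.

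Of the 17481 genes, 409 (2.34%) were higher in PGM by 1.5-fold or more and 398 (2.28%) lower by as much, together 4.62%. Counts at 1.5-fold in the lists below are to be read against these shares. Differences of any size were higher in PGM for 50.9% of the genes and lower for 48.8%, with a median of 0.005 and quartiles of -0.14 and 0.13. The scales of the groups were close, with a median level of 18.92 RPKM in PGM and 18.93 RPKM in Control. A difference of at least 2-fold was reached by 90 genes in the higher and 55 in the lower direction, and of at least 4-fold by 15 and 1. The share at 1.5-fold depended on the level, 11.3% of the 1472 genes with means of 1 to 2 RPKM and 1.83% of the 2242 genes with 50 to 100 RPKM. Transcripts of a gene gave mostly the same answer: among the 197 genes counted as higher that had more than 1 kept transcript, every transcript was higher in 196 and at least 1.5-fold higher in 165. For the genes counted as lower the numbers were 136 genes, 135 with every transcript lower and 107 with every transcript past 1.5-fold. Isoforms share reads and are not independent measurements.

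Sex-linked transcripts were among those that differed most. Eif2s3y, Ddx3y, Uty and Kdm5d, genes of the male-specific Y chromosome, were at 27.5, 30.4, 10.2 and 10.7 RPKM in PGM, against 2.0, 2.52, 0.92 and 1.0 RPKM in Control. The non-coding RNA Xist, which coats the inactive X chromosome of females, was at 14.2 RPKM in PGM and 44.0 RPKM in Control. Both groups thus held transcripts of Y-linked genes and of Xist, in unequal amounts. Tsix, its antisense partner, was at 4.89 RPKM in PGM and 15.9 RPKM in Control, and reads of the pair cannot be assigned to strands from the sources used here. X-linked genes with a Y-linked counterpart that escape inactivation were lower in PGM by less, with differences of -0.31 for Kdm5c, -0.19 for Kdm6a, -0.19 for Eif2s3x and -0.15 for Ddx3x. The part of these sex-linked differences in the other results was not tested.

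The oligodendrocyte lineage was ordered by stage: transcripts of mature myelin were higher in PGM, those of newly formed oligodendrocytes were close to Control, and those of precursors were somewhat lower. Of 18 structural genes of myelin, 17 were higher and 12 of them at least 1.5-fold, with a median of 0.65. Hapln2, a link protein of the matrix at the nodes of Ranvier, was at 11.96 RPKM in PGM and 4.16 RPKM in Control, a difference of 1.42. Ppp1r14a, an inhibitor of myosin phosphatase, was at 51.9 RPKM in PGM and 26.3 RPKM in Control. Cldn11, the claudin of myelin tight junctions, was at 525 RPKM in PGM and 329 RPKM in Control, and the oligodendrocyte connexin gene Gjb1 differed by 0.76. The adhesion genes Nfasc and Cntn2 did not share this. Nfasc, which encodes a nodal and paranodal protein, was at 212.7 RPKM in PGM and 200.8 RPKM in Control. Cntn2, which encodes a juxtaparanodal one, was at 36.2 RPKM in PGM and 36.9 RPKM in Control. Mbp, which encodes the basic protein that compacts the membrane, had 8 transcripts with differences of 0.47 to 0.63.

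Lipid enzymes and other metabolic genes of oligodendrocytes were higher in PGM in 12 of 12 cases, 4 of them at least 1.5-fold, with a median of 0.46. The list also holds genes that make no lipid, such as Trf, which encodes the iron carrier transferrin, at 265 RPKM in PGM and 174 RPKM in Control. Ugt8a, which makes the myelin lipid galactosylceramide, was at 207 RPKM in PGM and 131 RPKM in Control. Fa2h, which hydroxylates its fatty acid, was at 55.5 RPKM in PGM and 35.9 RPKM in Control, and Gal3st1, which sulfates it, at 67.2 RPKM in PGM and 52.9 RPKM in Control. These 3 enzyme genes act on 1 lipid pathway and differed by unequal amounts. Aspa, which frees acetate for lipid synthesis, was at 12.7 RPKM in PGM and 8.2 RPKM in Control. Genes of cholesterol synthesis, the other large lipid of myelin, were higher in 19 of 21 cases with a median of 0.24, none of them by 1.5-fold. The largest of those was Hsd17b7 at 13.7 RPKM in PGM and 9.83 RPKM in Control, while Srebf2, the transcription factor of the pathway, was at 65.2 RPKM in PGM and 70.7 RPKM in Control.

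Regulators and earlier stages differed little. Sox10 and Olig2, which specify the lineage, were at 37.6 and 60.1 RPKM in PGM and at 35.05 and 59.1 RPKM in Control, and the median over 9 transcription factors of the lineage was 0.08. Zfp488, a factor known to promote oligodendrocyte differentiation, was the exception at 1.5-fold, with 90.8 RPKM in PGM and 137 RPKM in Control. Of 9 genes of newly formed oligodendrocytes 6 were higher and 3 lower, none by 1.5-fold, with a median of 0.04; Enpp6 was at 40.2 RPKM in PGM and 35.7 RPKM in Control, and Gpr17, a receptor of cells about to mature, at 224 RPKM in PGM and 259 RPKM in Control. Among 9 precursor genes 7 were lower, none by 1.5-fold, with a median of -0.22. Pdgfra, the receptor of the precursor mitogen, was at 54.0 RPKM in PGM and 65.6 RPKM in Control, and Cspg4, the NG2 proteoglycan, differed by -0.36. In such bulk samples fewer cells of a type and less RNA per cell cannot be told apart.

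**Figure D1:**
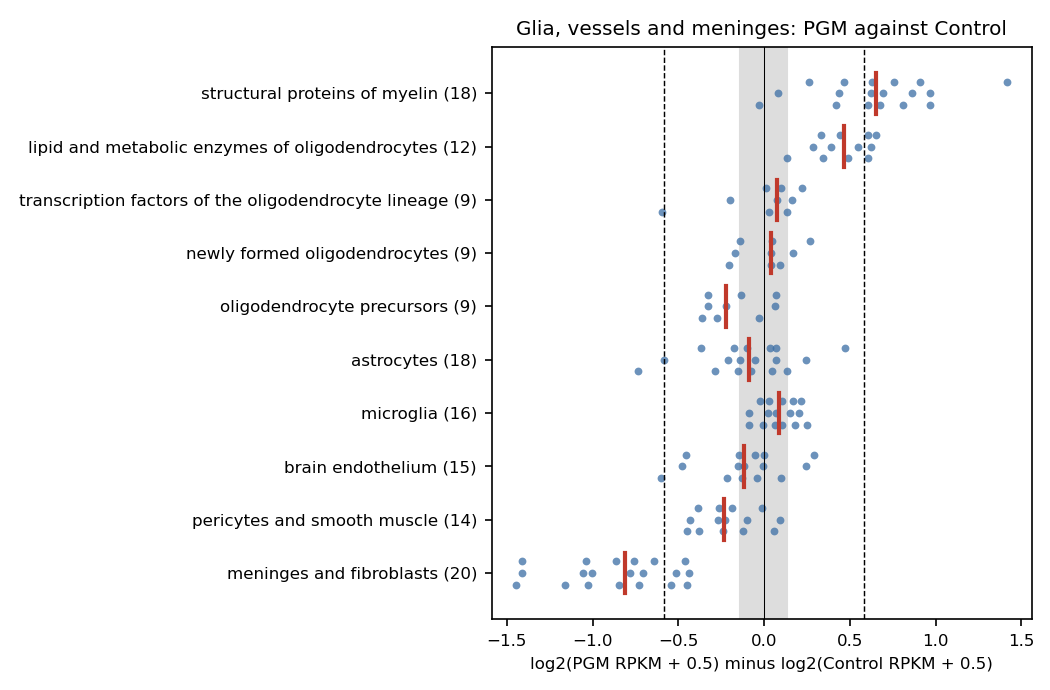
Each point is a kept gene of a list, placed by its difference log2(PGM RPKM + 0.5) minus log2(Control RPKM + 0.5), with the number of kept genes in brackets, red bars at list medians, dashed lines at 1.5-fold and a grey band between the quartiles of all 17481 genes. Structural myelin genes centre on 0.65 and meningeal genes on -0.81, while the precursor, astrocyte, microglial and endothelial medians lie between -0.22 and 0.08.

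Relay neurons are the projection cells of the thalamus, which lies over the hypothalamus. Of their 20 listed genes 20 were higher in PGM, 16 of them at least 1.5-fold, with a median of 1.01. Among all 17481 genes 2.34% were higher by 1.5-fold or more. This list, like the others, was chosen with earlier results of these data known, so its counts describe its members and are no test. The summed level of the 20 genes was 1734 RPKM in PGM and 1161 RPKM in Control. Transcription factors took part: Shox2 was at 38.1 RPKM in PGM and 11.8 RPKM in Control, Lhx9 at 10.8 RPKM in PGM and 4.63 RPKM in Control, Lef1, a mediator of Wnt signals, at 16.3 RPKM in PGM and 8.61 RPKM in Control, and Tcf7l2, its relative, at 36.6 RPKM in PGM and 22.2 RPKM in Control. Ptpn3, a tyrosine phosphatase, was at 40.7 RPKM in PGM and 16.4 RPKM in Control. All 8 transcripts of the protein kinase gene Prkcd were higher, by 1.97 to 2.13. The 2 genes that differed least, which many hypothalamic neurons also express, were Slc17a6, the vesicular glutamate transporter of diencephalic neurons, at 300 RPKM in PGM and 261 RPKM in Control, and Calb2, a calcium-binding protein, at 428 RPKM in PGM and 421 RPKM in Control. The habenula, which adjoins the thalamus, did not share the direction: 10 of 11 genes of the medial habenula were lower, none by 1.5-fold, with a median of -0.13. Chrnb3, a nicotinic receptor subunit, was at 4.58 RPKM in PGM and 5.26 RPKM in Control, and Gpr151 was the gene that was higher, at 2.42 RPKM in PGM and 1.62 RPKM in Control.

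Receptor subunits split by type. Among 16 kept GABA receptor genes 6 were higher and 10 lower, with a median of -0.11, and the 2 that were at least 1.5-fold higher were Gabrd and Gabra4, whose products assemble into extrasynaptic receptors of thalamic relay cells. Gabrd was at 43.7 RPKM in PGM and 8.28 RPKM in Control, with 42.2, 17.5 and 9.72 RPKM in the groups PGF, HM and HF. Gabra4 was at 79.0 RPKM in PGM and 35.4 RPKM in Control. Gabre and Gabrq, subunits of hypothalamic and brainstem neurons of the same X-linked cluster, were lower: Gabre was at 5.33 RPKM in PGM and 11.0 RPKM in Control, and Gabrq at 37.4 RPKM in PGM and 56.2 RPKM in Control, just short of 1.5-fold. The remaining 12 subunit genes differed by -0.31 to 0.25.

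**Figure D2:**
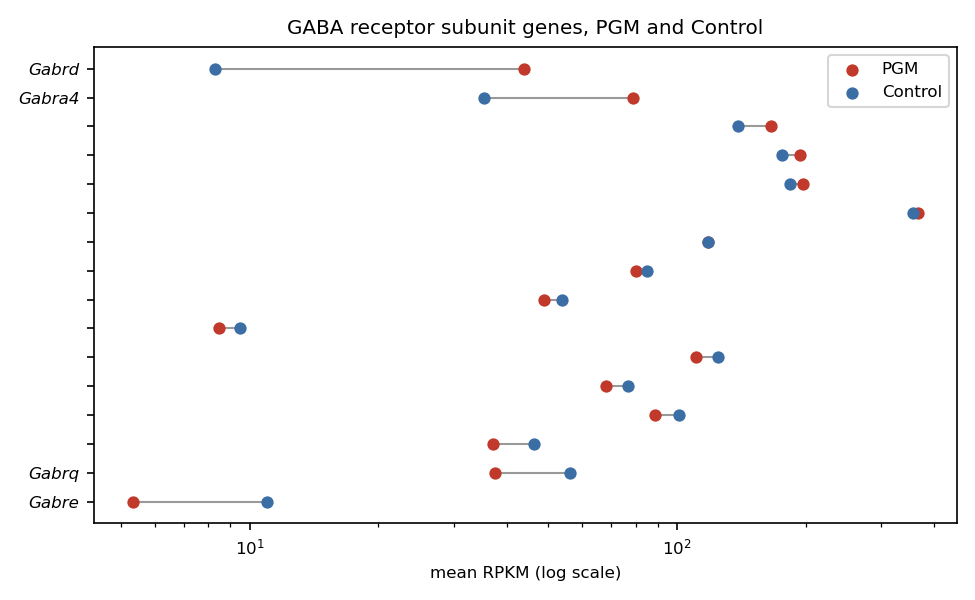
Mean RPKM on a log axis of the 16 kept GABA receptor subunit genes, 1 point for PGM and 1 for Control in each row, ordered by their difference, with names for the 4 genes described in the text. Gabrd and Gabra4 stand at the top with PGM to the right, and Gabre and Gabrq at the bottom with PGM to the left.

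Glutamate receptor genes were balanced, 13 higher and 11 lower of 24, with a median of 0.03. Grin2c, an NMDA receptor subunit found in thalamus, cerebellum and astrocytes, was at 25.8 RPKM in PGM and 15.5 RPKM in Control. It was the only 1 of the 24 past 1.5-fold, which is near the 4.62% of all genes. Grm4, a presynaptic metabotropic receptor, differed by 0.42, whereas the kainate receptor genes Grik3 and Grik5 differed by -0.38 and -0.37. Of 75 kept potassium channel genes 41 were higher and 34 lower, with a median of 0.04. Beside 2.34% higher and 2.28% lower among all genes, 6 of the higher and 1 of the lower channel genes were past 1.5-fold. The higher ones were Kcnh3 (3.71 RPKM in PGM, 1.51 RPKM in Control), Kcnj4 (16.02 RPKM in PGM, 7.41 RPKM in Control), Kcnab3, Kcna1, Kcng4 and Kcnj12. Kcna1, the axonal delayed rectifier whose loss causes ataxia and seizures, was at 59.5 RPKM in PGM and 36.1 RPKM in Control. The lower one was Kcnj13, a channel of transporting epithelia, at 1.75 RPKM in PGM and 4.62 RPKM in Control. Pvalb, the calcium-binding protein of fast-spiking cells, was at 68.8 RPKM in PGM and 30.3 RPKM in Control, while the general markers of inhibitory cells Gad1, Gad2 and Slc32a1 differed by 0.09, -0.01 and -0.07.

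Striatal genes were higher in PGM as well, and they were led by genes shared by both output pathways. Of 15 genes of striatal projection neurons 13 were higher, 7 of them at least 1.5-fold, with a median of 0.57 and a summed level of 833 RPKM in PGM and 609 RPKM in Control. Ppp1r1b, the phosphatase inhibitor DARPP-32 that integrates dopamine signals, was at 40.4 RPKM in PGM and 3.70 RPKM in Control, and at 13.4 to 19.2 RPKM in the other groups. Its 3 transcripts differed by 3.18 to 3.28. The G protein gene Gng7 was at 61.7 RPKM in PGM and 29.0 RPKM in Control, and the retinoic acid receptor gene Rarb at 6.31 RPKM in PGM and 2.98 RPKM in Control. Rgs9, a striatal regulator of G protein signalling, differed the other way, with 13.9 RPKM in PGM and 18.8 RPKM in Control.

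Pathway-specific striatal genes were uneven. In the direct pathway, the dopamine receptor gene Drd1a was at 12.2 RPKM in PGM and 4.70 RPKM in Control, while the peptide gene Tac1 was at 86.4 RPKM in PGM and 100.9 RPKM in Control and the transcription factor gene Isl1 at 16.02 RPKM in PGM and 19.1 RPKM in Control; 3 of the 6 genes were higher and the median was -0.02. In the indirect pathway all 6 genes were higher, with a median of 0.28, and the adenosine receptor gene Adora2a was the one past 1.5-fold, at 11.7 RPKM in PGM and 2.19 RPKM in Control. Drd2 was at 18.4 RPKM in PGM and 16.4 RPKM in Control, and Penk, the enkephalin precursor, at 101 RPKM in PGM and 93.8 RPKM in Control. Tac1, Pdyn, Isl1, Drd2 and Penk, which hypothalamic neurons also express, differed by -0.25 to 0.18.

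Cortical genes gave no common direction. Of 19 genes 12 were higher, 3 at least 1.5-fold, and 7 lower, with a median of 0.11. Slc17a7, the vesicular glutamate transporter of cortical and many thalamic neurons, was at 53.9 RPKM in PGM and 20.2 RPKM in Control. Mef2c, an activity-regulated transcription factor, was at 30.8 RPKM in PGM and 19.8 RPKM in Control. The factors that define cortical projection neurons were low and slightly lower in PGM, with Tbr1 at 4.05 RPKM in PGM and 4.67 RPKM in Control, Neurod6 at 1.34 RPKM in PGM and 1.71 RPKM in Control, and Fezf2 at 1.15 RPKM in PGM and 1.52 RPKM in Control. These differ in direction from Slc17a7.

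Listed genes of the nuclei of the hypothalamus itself were mostly lower in PGM, most of all those of the paraventricular and supraoptic nuclei. Thalamic and striatal genes were higher in the same samples. In bulk tissue, less RNA per cell and a smaller share of a nucleus in the dissected piece cannot be told apart. Of 8 genes of the paraventricular and supraoptic nuclei 7 were lower, 5 at least 1.5-fold, with a median of -0.71. Otp and Sim1, transcription factors needed for the neuroendocrine neurons to form, were at 3.56 and 2.83 RPKM in PGM and at 8.45 and 5.68 RPKM in Control. Avp, the precursor of vasopressin, which retains water, was at 352 RPKM in PGM and 659 RPKM in Control. Oxt, the precursor of oxytocin, which acts in milk ejection and labour, was at 289 RPKM in PGM and 504 RPKM in Control. Trh, the precursor of thyrotropin-releasing hormone, was at 87.9 RPKM in PGM and 135 RPKM in Control. Crh, the precursor of the releasing hormone of the stress axis, is made in the same nucleus and did not share the direction, with 9.62 RPKM in PGM and 9.19 RPKM in Control. Arnt2 and Pou3f2, broader partners of these factors, differed by -0.26 and -0.23.

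Since the subject of the series is thyroid hormone and Trh and Oxt were both lower, their promoters are shown, from 250 bases before to 50 bases after the RefSeq start in GRCm38.p6. Capitals mark the half-site bound by nuclear receptors of the thyroid hormone family, searched as AGGTCA on either strand, which reads TGACCT on the other. Trh (chr6:92244601-92244900, minus strand) holds 1 match at positions -57 to -52 from the start, and Oxt (chr2:130575919-130576218, plus strand) holds 2, at -185 to -180 and -166 to -161.
Trh: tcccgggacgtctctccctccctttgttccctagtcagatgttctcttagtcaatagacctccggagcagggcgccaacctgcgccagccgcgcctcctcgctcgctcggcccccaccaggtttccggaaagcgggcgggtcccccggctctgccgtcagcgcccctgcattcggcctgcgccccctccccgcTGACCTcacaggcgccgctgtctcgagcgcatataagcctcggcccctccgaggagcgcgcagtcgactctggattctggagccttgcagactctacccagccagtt
Oxt: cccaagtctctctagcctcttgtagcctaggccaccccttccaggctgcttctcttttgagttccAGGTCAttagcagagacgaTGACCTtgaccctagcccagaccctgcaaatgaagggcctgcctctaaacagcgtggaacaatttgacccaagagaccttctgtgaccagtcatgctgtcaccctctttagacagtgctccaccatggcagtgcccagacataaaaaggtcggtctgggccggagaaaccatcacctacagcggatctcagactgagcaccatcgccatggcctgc
The windows of Avp, Dio2, Dio3, Klf9 and Sema7a hold none. Of 32851 promoters of this length 16.3% hold at least 1 match and 1.81% at least 2, so that a match is a description of the letters and says nothing of binding. Oxt and Avp differed by -0.80 and -0.90, and a part of the matches in any such difference was not tested.

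In the arcuate nucleus, the feeding and growth centre at the base of the third ventricle, 13 of 13 kept genes were lower in PGM, 6 of them at least 1.5-fold, with a median of -0.58. Kiss1, the peptide that starts puberty, was at 1.19 RPKM in PGM and 2.90 RPKM in Control. Tbx3 and Bsx, factors of the feeding neurons, were at 1.65 and 2.94 RPKM in PGM and at 3.55 and 5.70 RPKM in Control. Both arms of feeding control were on the lower side: Agrp, which stimulates appetite, differed by -0.89, and Pomc and Cartpt, which restrain it, by -0.58 and -0.37. Ghrh, which drives growth hormone release, was at 6.76 RPKM in PGM and 10.8 RPKM in Control. Pomc is also expressed in the pituitary gland, and it stood at 370 RPKM in PGF.

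The ventromedial nucleus, which acts in energy balance and female mating, had 9 of 10 genes lower, 4 of them at least 1.5-fold, with a median of -0.24. Nr5a1, the nuclear receptor that defines it, was at 3.03 RPKM in PGM and 5.41 RPKM in Control, and the factor gene Fezf1 at 5.44 RPKM in PGM and 9.65 RPKM in Control. Adcyap1, the precursor of the peptide PACAP, was at 53.6 RPKM in PGM and 88.1 RPKM in Control. Nptx2, an activity-regulated synaptic pentraxin, was the gene that was higher, at 49.2 RPKM in PGM and 38.2 RPKM in Control. In the mammillary region, a relay of the memory circuit, 9 of 9 kept genes were lower, 3 of them at least 1.5-fold, with a median of -0.48. Its transcription factors Uncx, Lhx5 and Lmx1a were at 3.20, 6.76 and 3.61 RPKM in PGM, against 5.71, 11.2 and 5.79 RPKM in Control, while Foxb1 differed by -0.24.

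Other regions were closer to Control. In the lateral hypothalamus the peptides of wakefulness and feeding were nearly equal: Hcrt, the orexin precursor, was at 167 RPKM in PGM and 178 RPKM in Control, and Pmch, the precursor of melanin-concentrating hormone, at 591 RPKM in PGM and 524 RPKM in Control. Gal, the peptide galanin, was the gene of that list at least 1.5-fold lower, with 28.3 RPKM in PGM and 46.2 RPKM in Control, and Lhx9, which the list shares with the thalamic genes, the one that was higher by as much. Among 9 genes of the suprachiasmatic nucleus, the circadian pacemaker, 4 were higher and 5 lower, with a median of -0.10. Its developmental factors Lhx1 and Six6 were at 4.18 and 1.83 RPKM in PGM and at 7.22 and 3.69 RPKM in Control, whereas Rora, a nuclear receptor also abundant in thalamus, was at 89.2 RPKM in PGM and 46.2 RPKM in Control, and Vip, the pacemaker's peptide, at 7.71 RPKM in PGM and 8.32 RPKM in Control. Of 10 genes listed for the preoptic and anterior area 7 were lower, with a median of -0.26. The listed gene Rln3 was past 1.5-fold in the higher direction, at 1.13 RPKM in PGM and 0.57 RPKM in Control. Its mean lies between 1 and 2 RPKM, where 11.3% of genes passed 1.5-fold, so it says little of the area. Gnrh1, which drives the gonadal axis, was at 9.4 RPKM in PGM and 9.28 RPKM in Control. Hdc, the histamine-forming enzyme of the tuberomammillary neurons, was at 21.4 RPKM in PGM and 35.5 RPKM in Control.

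**Figure D3:**
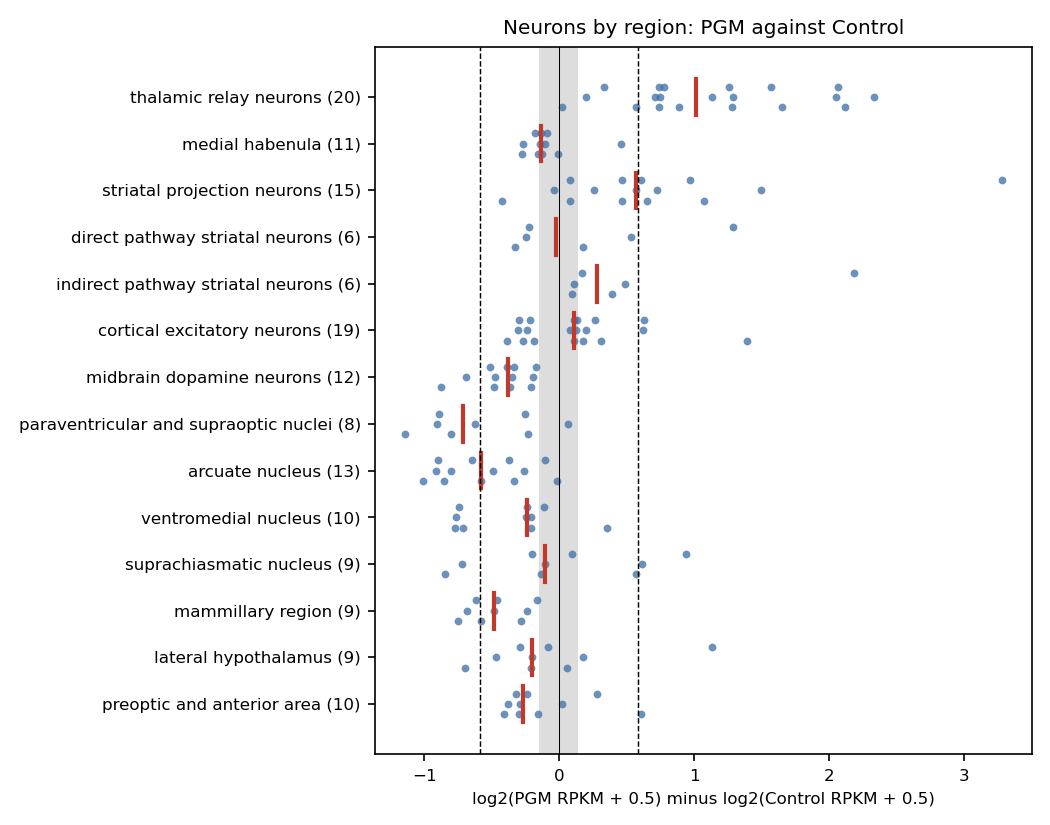
Each point is a kept gene of a list of regional neurons, placed by its log2 difference of PGM minus Control, with the number of kept genes in brackets, red bars at list medians, dashed lines at 1.5-fold and a grey band between the quartiles of all genes. The thalamic and striatal medians, 1.01 and 0.57, lie to the right, and those of the paraventricular, arcuate and mammillary lists, -0.71, -0.58 and -0.48, to the left.

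Receptors through which the hypothalamus senses energy and hormones were lower by small amounts. Of 23 kept receptors and partners for energy signals 21 were lower, 3 of them at least 1.5-fold, with a median of -0.22. The receptor genes for leptin, ghrelin and calcitonin, Lepr, Ghsr and Calcr, differed by -0.66, -0.64 and -0.59. Insr, the insulin receptor, was at 19.5 RPKM in PGM and 24.7 RPKM in Control, and Mc4r, the melanocortin receptor that restrains feeding, at 3.39 RPKM in PGM and 3.48 RPKM in Control. The receptors for adiponectin were the higher pair, with Adipor2 at 52.4 RPKM in PGM and 46.2 RPKM in Control. Among 14 steroid receptor and reproductive genes 11 were lower, with a median of -0.16; Esr1, an estrogen receptor, differed by -0.77 and Nr3c1, the glucocorticoid receptor, by -0.09. Cyp19a1, which makes estrogen, was at 0.22 RPKM in PGM and is listed at 0 in Control.

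Genes of midbrain dopamine neurons, whose cell bodies lie just behind the hypothalamus and some of which hypothalamic dopamine cells share, were lower in PGM in 12 of 12 kept cases, 2 of them at least 1.5-fold, with a median of -0.38. The order of the 5 groups varied by gene. Slc6a3, the dopamine transporter, was at 45.95 RPKM in PGM and 58.1 RPKM in Control, with 109.6, 76.9 and 123 RPKM in PGF, HM and HF. Th, the rate-limiting enzyme of dopamine synthesis, was at 48.1 RPKM in PGM and 62.0 RPKM in Control, with 82.5, 74.3 and 103 RPKM in PGF, HM and HF. PGM thus held the lowest mean of both genes. Nr4a2, which keeps the dopamine phenotype and is also an immediate early gene, was at 7.18 RPKM in PGM and 11.9 RPKM in Control, and Foxa1 at 1.04 RPKM in PGM and 2.32 RPKM in Control, and for both of these Control held the highest mean of the 5 groups. Chrna6, a nicotinic receptor subunit of dopamine terminals, differed by -0.51.

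Genes of thyroid hormone supply and action differed singly, with 8 of 24 kept members higher and 16 lower and a median of -0.07. Of the transporters, Slco1c1, the thyroxine carrier of brain vessels, was at 48.4 RPKM in PGM and 39.4 RPKM in Control, and Slc7a8, an amino acid exchanger that also carries the hormone, at 21.3 RPKM in PGM and 14.9 RPKM in Control. Dio2, the activating deiodinase of tanycytes and astrocytes, was at 17.7 RPKM in PGM and 14.5 RPKM in Control. Dio3, which inactivates the hormone, was at 1.27 RPKM in PGM and 0.94 RPKM in Control and did not pass the level filter. Receptor genes were nearly equal, Thra at 395 RPKM in PGM and 404 RPKM in Control and Thrb at 11.97 RPKM in PGM and 10.6 RPKM in Control. The corepressor gene Ncor1 was at 47.9 RPKM in PGM and 53.3 RPKM in Control. Crym, a cytosolic binder of the hormone that striatal and cortical cells express, was at 21.2 RPKM in PGM and 4.83 RPKM in Control, with 7.96, 10.07 and 13.9 RPKM in PGF, HM and HF, and its 2 transcripts differed by 1.78 and 2.07. Both Trh receptors were detected and differed in opposite ways, Trhr by -0.41 and Trhr2, which is a thalamic gene in rodents, by 0.57, and Trhde, the enzyme that degrades the peptide, differed by -0.44.

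Of 22 kept genes known to respond to thyroid hormone in brain 16 were higher, 2 of them at least 1.5-fold, with a median of 0.25. Mbp was 1 of these 2. Hr and Sema7a, both direct responders, differed by 0.57 each, and Klf9 by 0.28. The neurofilament genes Nefh, Nefm and Nefl differed by 0.50, 0.24 and 0.29. Among the 6 that were lower, Kcnj10, a potassium channel of astrocytes, differed by -0.09 and Stat5a, a signalling factor, by -0.33. The list shares Mbp with the myelin genes, and the myelin, thalamic and striatal genes were higher in the same samples. Their part in the difference was not tested.

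Imprinted genes, expressed from the allele of a single parent, were lower in 34 of 39 kept cases, 10 of them at least 1.5-fold, and higher in 5, with a median of -0.25. Igf2, a fetal growth factor, and H19, a non-coding RNA of the same locus, were at 58.5 and 2.93 RPKM in PGM and at 122 and 7.18 RPKM in Control. Mest, a maternally imprinted hydrolase, was at 87.8 RPKM in PGM and 174 RPKM in Control. Peg3, a zinc finger gene abundant in hypothalamus, was at 480 RPKM in PGM and 672 RPKM in Control, and Plagl1, a regulator of other imprinted genes, at 10.6 RPKM in PGM and 18.3 RPKM in Control. Asb4, a gene of arcuate neurons, was at 14.5 RPKM in PGM and 24.8 RPKM in Control. Genes of the Prader-Willi region were nearer to Control, with differences of -0.20 for Ndn, -0.40 for Magel2 and -0.11 for Snrpn. Igf2 and Dcn are also meningeal genes, and meningeal genes were lower in the same samples, a shared difference whose part was not tested.

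In the Dlk1-Dio3 region of chromosome 12, 2 of the 3 genes normally expressed from the paternal allele were lower: Dlk1, an inhibitor of differentiation, was at 27.1 RPKM in PGM and 43.3 RPKM in Control, and Rtl1, a retrotransposon-derived gene, at 12.1 RPKM in PGM and 19.1 RPKM in Control. The third, Dio3, was low in both groups and did not pass the level filter. The non-coding RNAs expressed from the maternal allele were higher: Meg3 was at 234 RPKM in PGM and 147 RPKM in Control, Rian at 717 RPKM in PGM and 616 RPKM in Control, and Mirg at 15.99 RPKM in PGM and 13.9 RPKM in Control. Meg3 was at 144, 141 and 167 RPKM in PGF, HM and HF, so PGM was the high group. The 7 transcripts of Meg3 differed by 0.11 to 0.75, all in the higher direction. Allele-specific counts were not used, so the values do not show from which allele the RNA came. A maternal antisense transcript overlaps Rtl1, and its reads cannot be separated without strand information.

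MicroRNA hairpins of the region, processed in the cell from the maternal non-coding RNAs, did not follow these. Of 47 with values, 20 passed the filter, 8 higher and 12 lower, with a median of -0.19, and 2 of the higher and 5 of the lower ones were past 1.5-fold. All 7 were at or below 7.34 RPKM. A hairpin is far shorter than a library fragment, so these values are reads that fell on the hairpin in longer precursor RNA, rest on few bases and do not measure the mature microRNA. The mature forms of 3 hairpins that were lower and 1 that was higher are shown, from RefSeq in GRCm38.p6, with the seed, bases 2 to 8, in capitals.
mmu-miR-341-3p: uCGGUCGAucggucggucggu
mmu-miR-1188-5p: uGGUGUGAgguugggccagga
mmu-miR-758-3p: uUUGUGACcugguccacua
mmu-miR-409-3p: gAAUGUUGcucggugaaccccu
No 2 of these share a seed. Mir341 (chr12:109611556-109611576 for the mature form) and Mir1188 (chr12:109611841-109611861) lie within Rian, which was higher, and their hairpins were at 2.17 and 2.93 RPKM in PGM and at 5.45 and 7.34 RPKM in Control. Mir758 was at 1.14 RPKM in PGM and 2.92 RPKM in Control. Mir409 (chr12:109743204-109743225) lies within Mirg and was at 1.83 RPKM in PGM and 0.48 RPKM in Control.

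**Figure D4:**
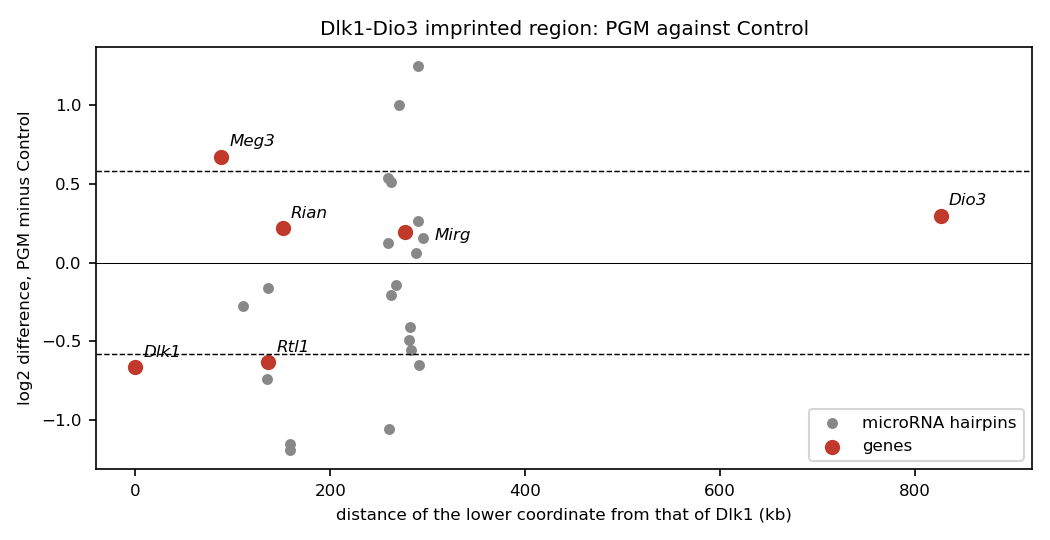
Log2 difference of PGM minus Control against the distance of each gene's or hairpin's lower coordinate from that of Dlk1, in kb, with large red points for genes, small grey points for the 20 kept microRNA hairpins and dashed lines at 1.5-fold. Dlk1 and Rtl1 lie below the lower line, Meg3 above the upper one, and the hairpins on both sides of 0; Dio3 is drawn although it did not pass the level filter.

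Genes of the meninges and their fibroblasts, the membranes around the brain, were lower in PGM in 20 of 20 cases, 15 of them at least 1.5-fold, with a median of -0.81 and a summed level of 763 RPKM in PGM and 1889 RPKM in Control. Ptgds, a prostaglandin synthase secreted into the cerebrospinal fluid by meningeal cells and also made by oligodendrocytes, made up most of that sum, with 538 RPKM in PGM and 1468 RPKM in Control. It was at 803, 696 and 1544 RPKM in PGF, HM and HF, so Control and HF were high together. Fmod, a matrix proteoglycan, was at 6.31 RPKM in PGM and 17.6 RPKM in Control, and Slc13a4, a sulfate transporter, at 5.21 RPKM in PGM and 12.2 RPKM in Control. Aldh1a2, which makes retinoic acid, was at 6.32 RPKM in PGM and 13.4 RPKM in Control. Collagens divided with them: of 31 kept genes 21 were lower, 5 of them at least 1.5-fold, and 10 higher, with a median of -0.30. Fibrillar Col5a1 and Col3a1 were at 3.17 and 13.3 RPKM in PGM and at 6.89 and 24.7 RPKM in Control, while Col11a2 and Col9a3 differed by 0.55 and 0.47.

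Cells of the vessel wall showed less. Of 14 genes of pericytes and smooth muscle 12 were lower, none by 1.5-fold, with a median of -0.23, and of 15 endothelial genes 11 were lower, with a median of -0.11. Kdr, the main receptor for vascular endothelial growth factor, was the endothelial gene at 1.5-fold, with 8.89 RPKM in PGM and 13.8 RPKM in Control, and Cldn5, the tight junction claudin of the blood-brain barrier, was at 87.2 RPKM in PGM and 89.7 RPKM in Control. The globin transcripts Hba-a2, Hbb-b1 and Beta-s, which come from blood cells, differed by -0.65, -0.89 and -0.90, and Alas2 by -1.17; the beta globins are near-identical and share reads. Microglial genes were close to Control, 12 of 16 higher, none by 1.5-fold, with a median of 0.08, such as P2ry12 at 46.2 RPKM in PGM and 41.6 RPKM in Control. Astrocyte genes had a median of -0.09, with 7 higher and 11 lower of 18. Gfap, the filament of reactive and white matter astrocytes, was at 146 RPKM in PGM and 244 RPKM in Control, whereas Aldh1l1, Slc1a2 and Aqp4 differed by -0.18, 0.03 and -0.21. Genes listed for ependyma and tanycytes gave no common direction, 8 of 17 kept genes being higher and 9 lower, with a median of -0.04. Hdc, described above as an enzyme of tuberomammillary neurons, stands in this list as 1 of the 9 lower genes. The ciliary genes Ccdc153, Foxj1 and Dynlrb2 differed by 0.64, 0.34 and 0.36. Among tanycyte genes Col23a1 and Scn7a differed by -0.73 and -0.64, and Crym, Frzb and Dio2 by 2.03, 0.70 and 0.29. Rax, the factor that defines tanycytes, was at 0.22 RPKM in PGM and 1.07 RPKM in Control and did not pass the filter.

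Genes of the choroid plexus, the pituitary gland and the lens of the eye gave mixed values. Ttr, the thyroxine carrier of the choroid plexus, was at 106 RPKM in PGM and 7.01 RPKM in Control, with 440, 22.8 and 18.7 RPKM in PGF, HM and HF, the largest difference of any gene with at least 2 RPKM in either group. Other choroid plexus genes did not share its size, and some differed the other way. Folr1 was at 2.44 RPKM in PGM and 1.35 RPKM in Control, and Kl at 5.78 RPKM in PGM and 5.98 RPKM in Control. Kcnj13, also of this list, was at 1.75 RPKM in PGM and 4.62 RPKM in Control. Of the 11 kept genes 6 were higher, 2 of them at least 1.5-fold, and 5 lower, 1 of them by as much. Their median was 0.07. Pituitary genes were led by Cga at 5.60 RPKM in PGM and 26.2 RPKM in Control, while Gh was at 59.7 RPKM in PGM and 39.8 RPKM in Control and Pou1f1, the factor of the cells that make it, at 0.06 RPKM in PGM and 0.01 RPKM in Control. Several lens crystallins were above 2 RPKM in Control alone. Cryaa, Cryga and Crygd were at 0.40, 0.28 and 0.16 RPKM in PGM and at 2.71, 3.21 and 2.80 RPKM in Control, and Crygb and Crygc are listed at 0 in PGM and at 2.65 and 2.06 RPKM in Control. Cryaa was at 0.21, 0.33 and 0.46 RPKM and Cryga at 0.54, 0.42 and 0.48 RPKM in PGF, HM and HF. Of 18 lens genes 5 passed the level filter, and these 5, which had a median of -0.15, do not stand for the others. Gamma crystallins are near-identical and share reads.

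**Figure D5:**
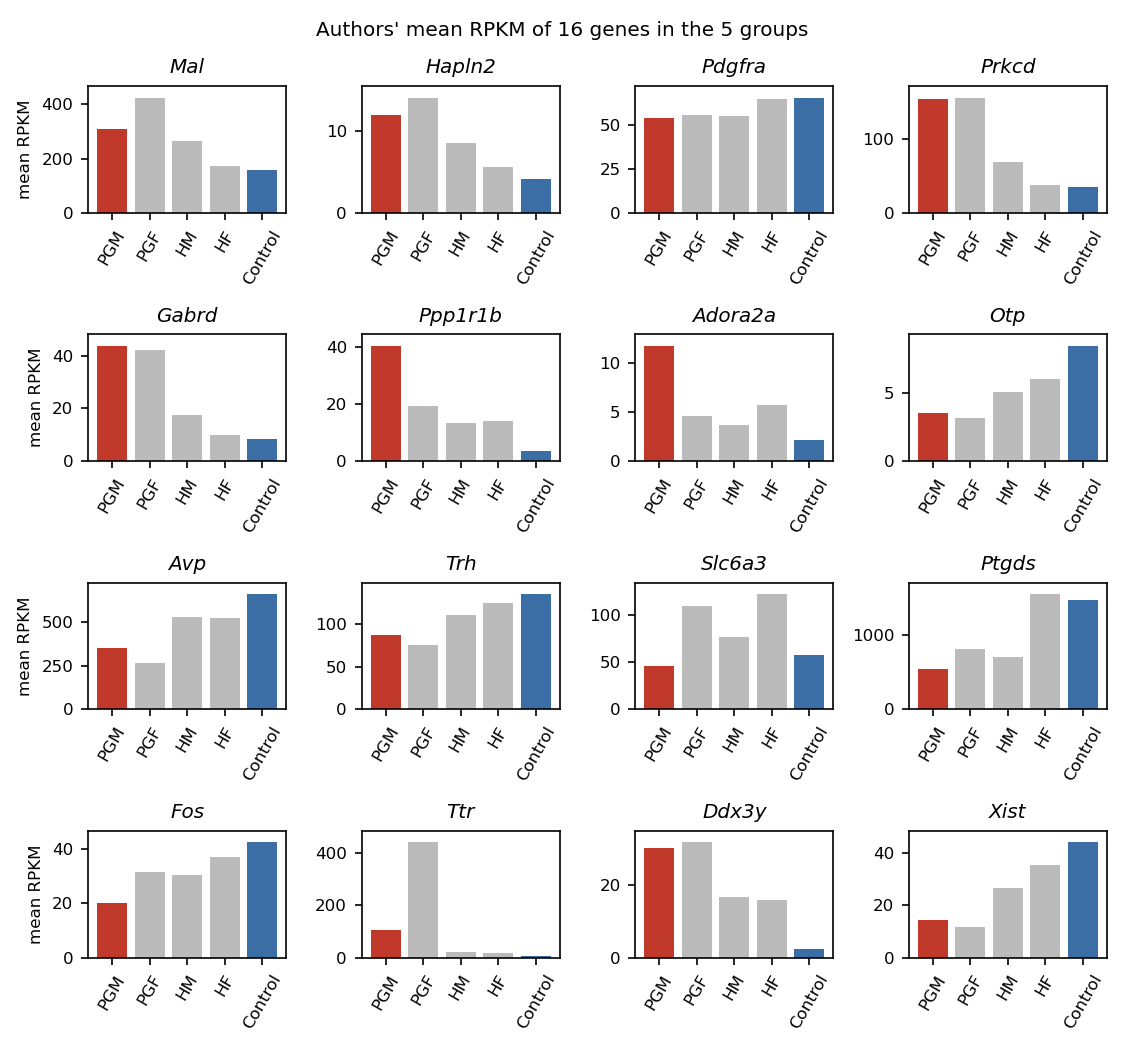
Mean RPKM of 16 genes in the 5 groups, PGM in red at the left, PGF, HM and HF in grey, and Control in blue at the right, each panel with its own axis from 0 and no error bar because 1 mean per group was used. Prkcd and Gabrd are high in PGM and PGF, Ppp1r1b and Adora2a highest in PGM, and Ptgds high in Control and HF.

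Immediate early genes, induced within minutes by neuronal firing, were lower in 17 of 25 kept cases, 6 of them at least 1.5-fold, and higher in 8, with a median of -0.24. Fos was at 19.9 RPKM in PGM and 42.4 RPKM in Control, and Junb, its partner, at 24.3 RPKM in PGM and 38.7 RPKM in Control. Npas4, which responds to calcium entry, was at 1.94 RPKM in PGM and 3.52 RPKM in Control, and Nr4a3 at 1.48 RPKM in PGM and 2.98 RPKM in Control. Arc, Homer1 and Dusp1, which the same stimuli induce, were on the other side with differences of 0.18, 0.21 and 0.29, and Egr3 with 0.63. Clock genes were higher in 14 of 20 cases with a median of 0.13. Dbp and Hlf, output factors of the clock, differed by 0.36 and 0.48, Per1 and Per2, core repressors, by -0.15 and -0.21, and Npas2, the forebrain partner of Arntl, was the one past 1.5-fold at 8.46 RPKM in PGM and 4.74 RPKM in Control. Genes that glucocorticoids induce had a median of 0.00, with none past 1.5-fold and Fkbp5 at 14.6 RPKM in PGM and 14.8 RPKM in Control. Interferon-responsive genes had a median of -0.07 with none past 1.5-fold.

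Housekeeping systems differed by small amounts in common directions. Of 80 kept nuclear genes for the respiratory chain and ATP synthase 78 were higher, with a median of 0.16. Cox7c, a subunit of cytochrome oxidase, was at 797 RPKM in PGM and 627 RPKM in Control, and Cox6a2, its muscle isoform, was the gene past 1.5-fold, at 22.6 RPKM in PGM and 9.55 RPKM in Control. Cytosolic ribosomal proteins were higher in 64 of 80 cases with a median of 0.05 and none past 1.5-fold. Replication-dependent histones, near-identical genes that share reads, were higher in 53 of 60 cases with a median of 0.13. Genes with means of at least 100 RPKM had a median of 0.07 as a whole and those of 1 to 2 RPKM a median of -0.07, and abundant lists are to be read against that. Cell cycle genes were lower in 13 of 18 cases with a median of -0.09, Mki67 at 2.13 RPKM in PGM and 2.58 RPKM in Control. Clustered protocadherins, which give neurons their surface identity, were lower in 53 of 59 cases with a median of -0.05. Many of their alpha and gamma members held near-equal values and cannot be counted as independent measurements. Pcdhga1 and Pcdhga2, for example, were at 148.5 and 149.2 RPKM in PGM and at 152.9 and 153.0 RPKM in Control. Enzymes that modify DNA and histones were lower in 27 of 39 cases with a median of -0.12; Kdm6b, a demethylase of histone H3, was at 5.32 RPKM in PGM and 8.91 RPKM in Control, and the DNA hydroxylase genes Tet1 and Tet3 differed by -0.42 and -0.39. Heat shock and unfolded protein genes had a median of 0.04, with Hspb1, a small chaperone, at 22.7 RPKM in PGM and 13.97 RPKM in Control.

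Small nucleolar RNAs, which guide the modification of ribosomal RNA, differed by class. H/ACA guides, which direct pseudouridylation, were higher in 28 of 33 kept cases, 12 of them at least 1.5-fold, with a median of 0.44. Snora23 was at 122 RPKM in PGM and 62.7 RPKM in Control, Snora31 at 45.6 RPKM in PGM and 24.1 RPKM in Control, and Snora2b at 6.13 RPKM in PGM and 1.40 RPKM in Control. C/D box guides, which direct methylation, were higher in 26 of 42 kept cases, 7 of them past 1.5-fold, and lower in 16, 3 of them past 1.5-fold, with a median of 0.21, ranging from Snord111 at 0.68 RPKM in PGM and 1.79 RPKM in Control to Snord87 at 4.27 RPKM in PGM and 1.07 RPKM in Control. These RNAs are short and lie in introns of other genes, so library size selection and reads of the host gene enter their values. The part of either was not tested.

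Control was 1 of 5 groups, and PGM was also set against the median of PGF, HM and HF. In that view the medians were 0.22 for structural myelin genes, 0.59 for thalamic relay genes, -0.66 for dopamine genes, -0.40 for the paraventricular and supraoptic genes and -0.39 for meningeal genes, all in the same direction as against Control. Those of the precursor and H/ACA lists came close to 0, at -0.009 and 0.04. Several others had the opposite sign, among them those of the suprachiasmatic genes at 0.22, the cell cycle genes at 0.08, the chromatin enzymes at 0.03 and the C/D guides at -0.07.

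Large differences also occurred in genes of no list, taken by size among genes with at least 2 RPKM in either group. On the higher side, Scn4b, a sodium channel subunit that permits fast firing, was at 27.8 RPKM in PGM and 9.74 RPKM in Control, and the receptor gene Nmbr, for neuromedin B, at 12.1 RPKM in PGM and 4.31 RPKM in Control. Ddn and Itpka, both of dendritic spines, were at 66.8 and 14.8 RPKM in PGM and at 26.2 and 5.73 RPKM in Control. Cck, the peptide cholecystokinin, was at 231 RPKM in PGM and 114 RPKM in Control, and Pdp1, a phosphatase that activates pyruvate dehydrogenase, at 144 RPKM in PGM and 69.0 RPKM in Control. On the lower side, Slc6a20a, a proline transporter, was at 11.8 RPKM in PGM and 30.3 RPKM in Control, Aebp1, a matrix protein of fibroblasts, at 5.42 RPKM in PGM and 14.6 RPKM in Control, and Dgkk, a diacylglycerol kinase, at 18.6 RPKM in PGM and 44.7 RPKM in Control. Cdh1, the epithelial cadherin, was at 0.81 RPKM in PGM and 3.01 RPKM in Control. By chromosome, the share at 1.5-fold ran over the autosomes from 2% of the 400 genes with a position on chromosome 16 to 6.92% of the 491 on chromosome 12, with 14 of those higher and 20 lower, against 4.62% of all genes.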

How the data were processed

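Total RNA of the hypothalamus was sequenced by the authors. The submitters' processing notes name FastQC, the aligner Novoalign 2.08 and the genome build mm10. The deposited table holds RPKM averaged by the authors over each group, per the file headers; values of single libraries were not used. Not given in the sources used here are the counting program, its treatment of strand, shared reads and isoforms, and the depth. With no replicate values, differences were described without a test.

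A stray header line was dropped, the median over a gene name's transcripts was taken, and 26 names that are bare numbers were kept as listed. The filter was a mean of at least 1 RPKM, the pseudocount 0.5 and the threshold 1.5-fold. A gene at 0 in either group was given no fold. Membership of 58 gene lists was set by gene symbol, with 8 names found by synonym and 7 not found, and potassium channel, ribosomal and oxidative phosphorylation names that a name pattern had caught wrongly were removed afterwards. The genes named are list members, chiefly the 4 with the largest difference at 2 RPKM or more, and the 15 largest differences in each direction; genes given as examples beyond these were chosen after their values were seen, and a few genes are not reported here. Members and lists were chosen with earlier results of these data known. Positions came from GENCODE M21 (GRCm38, called mm10) for 13318 of the kept genes (76.2%), and sequences from RefSeq. Python 3.11.15, numpy 2.4.6, pandas 2.3.3 and matplotlib 3.10.9 were used, and the calculation was tested on simulated data. Alternatives were a filter at a mean of 3 RPKM or none, pseudocounts of 1 and 0.1, a 2-fold threshold, upper quartile scaling, the sum or the highest value over transcripts, and the median of PGF, HM and HF as reference.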

Additional observations from a re-analysis of the deposited data

How the results depend on the processing

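Upper quartile scaling left the direction of all 57 list medians and 226 named genes as reported. Pseudocounts of 0.1 and 1 did so too, but a pseudocount cannot change which group is higher for a gene. It can change the direction of a list median only where the middle genes of the list differ in direction. The pseudocount settings are therefore no check of the direction of a gene. With no filter 608 genes were lower in PGM, and list medians were -0.15 for tanycytes and ependyma, -0.29 for erythroid, -0.22 for pituitary, -0.93 for lens and 0.032 for C/D guide genes. At a filter of 3 RPKM, with fewer genes tested, the median was -0.22 for cell cycle genes, and of the opposite sign for the suprachiasmatic (0.10), choroid plexus (-0.046), microRNA (-0.19), glucocorticoid (0.0095) and interferon (0.0057) lists. That of the glucocorticoid list was 0.0026 with no filter. At 2-fold 90 genes were higher and 55 lower. The pineal median was -0.015 with transcripts summed and 0.00958 with the highest transcript, which also reversed Sag (0.0097) and Sox9 (-0.42). The cause was not tested.

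With the median of PGF, HM and HF in place of Control 131 genes were higher and 93 lower in PGM. Medians were 0.22 for structural and 0.22 for lipid myelin genes, -0.0092 for precursors, 0.59 for thalamic, -0.66 for dopamine, -0.40 for paraventricular, -0.18 for mammillary, -0.057 for preoptic, -0.10 for energy receptor, -0.13 for mural, -0.39 for meningeal, -0.37 for erythroid, -0.22 for pituitary, 0.10 for thyroid response, -0.093 for immediate early, -0.14 for glucocorticoid, 0.035 for H/ACA and -0.047 for collagen genes. Of the opposite sign were suprachiasmatic (0.22), lens (0.060), sex-linked (0.00850), chromatin (0.032), GABA receptor (0.00618), C/D guide (-0.072), direct pathway (0.15), choroid plexus (-0.078), cell cycle (0.083), microRNA (-0.045), thyroid machinery (0.012), transmitter (0.015), protocadherin (0.035) and olfactory receptor (0.018) medians, and the genes Otx2 (-0.078), Drd2 (-0.040), Lmx1b (0.023), Hmx3 (0.00405), Hcrtr1 (0.00113), Gh (-0.057), Cryba4 (0.018), Tet1 (0.074), Tet3 (0.10), Sgk1 (-0.0677), Mcm6 (0.11) and Snora23 (-0.010). The cause was not tested. Leaving out replicates was not run. No paired analysis was possible because the table holds 1 mean per group. Depth is unknown, so what it limits cannot be stated, and values of a few RPKM are the least certain.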

Other observations

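Some values belong to no comparison of lists. Glo1, a detoxifying enzyme, was at 332 RPKM in PGM and 295 RPKM in Control, with 368, 201 and 148 RPKM in PGF, HM and HF. Fggy, a carbohydrate kinase, was at 5.21 RPKM in PGM and 8.60 RPKM in Control, with 5.83, 8.79 and 1.16 RPKM in PGF, HM and HF. Gstt1, a glutathione transferase, was at 14.6 RPKM in PGM and 13.7 RPKM in Control, with 6.26, 15.3 and 14.02 RPKM in PGF, HM and HF. PGM was thus close to Control for Glo1 and Gstt1. Mir9-2, a host of a microRNA of neural progenitors, was at 2.11 RPKM in PGM and is listed at 0 in Control. The mitochondrial gene mt-Nd4, the one of its genome in the table, was at 2144 RPKM in PGM and 2777 RPKM in Control, whereas the nuclear genes of the same respiratory chain had a median difference of 0.16. Klk6, a serine protease of oligodendrocytes outside the lists, was at 3.80 RPKM in PGM and 1.65 RPKM in Control.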
